A study of Rattus norvegicus with 6 samples.

Results

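The genes that feed electrons to the microsomal cytochromes P450 and that make and break down their haem were examined in rat liver. The set held 9 genes chosen by symbol: Por, Cyb5a and Cyb5r3 for electron supply, Alas1, Alad, Urod, Cpox and Fech for haem synthesis, and Hmox1 for haem breakdown. They were chosen with the log2 differences of the same tea against control comparison in view, so these differences are given as a description and support nothing. Of the 9 genes, 7 were matched to a probe through their RefSeq transcripts, out of 9627 named genes measured, each by 1 probe. Urod and Fech were not analysed here.

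Liver was taken from male Sprague Dawley rats, all of which had eaten a 60% high-fat diet. The tea group (3 arrays) had been dosed by gavage with dark tea made with Eurotium cristatum strain 8730, a fungus, and the control group (3 arrays) distilled water, for 9 weeks. Rats on normal chow were not analysed here. The labels do not say that the replicates were separate animals, so the spread between arrays may in part be technical. With so few arrays every value has a wide error. The liver label was borne out by Alb, the albumin gene, at a log2 intensity between 15.41 and 15.76 in the 6 arrays.

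A microsomal P450 needs electrons from NADPH for each round of catalysis, and these come through NADPH-cytochrome P450 reductase, the flavoprotein encoded by Por. A second route runs from NADH through cytochrome b5 reductase (Cyb5r3) to cytochrome b5 (Cyb5a), which also serves fatty acid desaturases. Every P450 carries a haem group, and in liver the supply of haem is set mainly by 5-aminolevulinate synthase 1 (Alas1), which haem itself represses.

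Over all probes control replicate 1 was unlike the remaining arrays. Its Pearson correlation with the others over all probes, given as a description over arrays that share the same probes, was at most 0.899, while the lowest among the remaining 5 arrays was 0.946. It held the lowest of the 6 values for 27.4% of all probes and the highest for 28.1%. Of the 7 genes, 4 had their lowest value in this array (Por, Cyb5a, Alas1 and Cpox) and 2 their highest (Cyb5r3 and Hmox1). The tea minus control differences of single genes are therefore also given without it where it moved them by over 1.5 times, turned their sign or changed whether the groups overlapped.

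Por was the gene of the set in which the groups parted. Its log2 intensity was 9.55, 9.90 and 9.56 in tea replicates 1, 2 and 3, and 5.72, 8.47 and 8.52 in control replicates 1, 2 and 3. All tea arrays lay above all control arrays, and the tea arrays lay within 0.35 of each other while the controls spread over 2.80. The tea mean was 9.67 ± 0.20 and the control mean 7.57 ± 1.60 (SD, n = 3 arrays per group). On the log2 scale tea exceeded control by 2.10 ± 0.64 (SE, 95% interval 0.68 to 3.52), a 4.27-fold higher level with tea.

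Much of that size came from 1 array. Control replicate 1 read 14.2-fold below the median of the other 5 arrays for Por, and 0.121% of all probes lay as far below their median there. At 5.72 it was close to the random-sequence control row of the table, which read 5.05 to 5.40. Without control replicate 1 the Por difference was 1.17 ± 0.31 (95% interval 0.51 to 1.83), a 2.25-fold higher level, and both remaining controls still lay below all tea arrays. Leaving out each of the other arrays gave differences between 1.98 and 2.57.

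**Figure D1:**
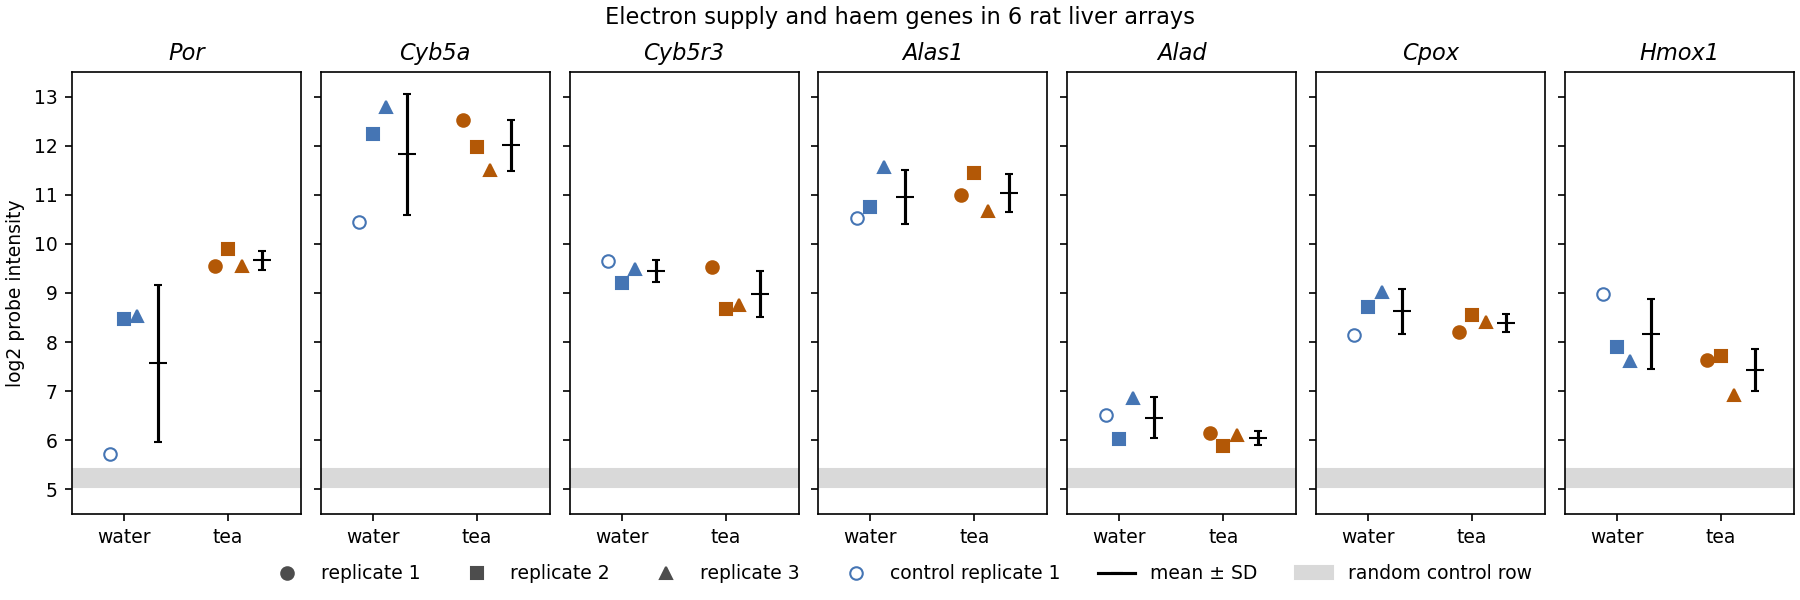
Log2 probe intensity (vertical axis) of the 7 measured genes in the water and tea groups, 1 point per array with replicate numbers by symbol, control replicate 1 as an open circle, bars for the mean ± SD (n = 3) and a grey band for the random control row (5.05 to 5.40). Por is the gene whose groups do not overlap, and its open circle at 5.72 lies just above the band.

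The 250 bases before the annotated Por start are shown because Por was the gene with separate groups. They lie at chr12:26635810-26636059 on the minus strand of the rat GRCr8 assembly (RefSeq), and are followed by those of Alad at chr5:80987902-80988151, minus strand, the measured gene in which a searched motif was found, with that motif in capitals.
Por: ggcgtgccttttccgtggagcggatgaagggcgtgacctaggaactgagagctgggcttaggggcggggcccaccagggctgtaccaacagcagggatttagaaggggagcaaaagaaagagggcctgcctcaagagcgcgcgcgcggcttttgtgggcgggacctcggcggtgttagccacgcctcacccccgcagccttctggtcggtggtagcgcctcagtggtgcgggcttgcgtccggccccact
Alad: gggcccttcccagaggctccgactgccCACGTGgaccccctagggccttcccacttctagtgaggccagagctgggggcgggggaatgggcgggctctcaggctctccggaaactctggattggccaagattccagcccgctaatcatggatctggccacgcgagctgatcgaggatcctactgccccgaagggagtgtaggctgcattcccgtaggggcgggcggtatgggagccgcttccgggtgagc

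Both strands of these windows were searched for 3 motifs: the D-box TTATGTAA, bound by Dbp and its relatives, the E-box CACGTG, bound by clock activators, and the antioxidant response element TGACNNNGC. Among 33469 rat promoter windows of this length, 0.828%, 5.59% and 10.1% held them. Promoters of 7 of the 9 genes were in the table used here. The E-box was found in Alad, from 223 to 218 bases before the start, and in Urod, and none of the 3 motifs in the windows of Por, Cyb5a, Cyb5r3, Alas1 or Fech. The Por window was 66% G or C, against a median of 51.2% over all promoters.

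In the cytochrome b5 arm the groups overlapped for both genes. Cyb5a, the membrane-bound electron carrier, read 12.54, 11.98 and 11.51 in the tea arrays and 10.44, 12.24 and 12.79 in the controls. Control replicate 1 was the lowest of the 6 and control replicate 3 the highest. The log2 difference was 0.18 ± 0.55 (SE, 95% interval -1.04 to 1.41). Without control replicate 1 it was -0.51 ± 0.36, and it was -0.08 without tea replicate 1, so the sign turned with either array. Control replicate 1 lay 3.47-fold below the median of the other 5.

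Cyb5r3, the NADH-dependent reductase of cytochrome b5, read 9.52, 8.67 and 8.75 with tea and 9.65, 9.21 and 9.48 with water. Tea replicates 2 and 3 lay below all controls and tea replicate 1 among them. The difference was -0.47 ± 0.33 (SE), and -0.37 ± 0.34 without control replicate 1.

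Among the haem synthesis genes, Alas1, the rate-limiting first step, showed the smallest difference of the set. It read 11.00, 11.44 and 10.67 with tea and 10.53, 10.76 and 11.57 with water. The 2 groups covered nearly the same range. The log2 difference was 0.09 ± 0.37 (SE, 95% interval -0.73 to 0.90), and it was -0.12 ± 0.36 without control replicate 1. Its sign also turned without tea replicate 2 (-0.12) or control replicate 2 (-0.013). The interval leaves room for a change of either sign, so the values do not show that the level was the same.

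Alad, which joins 2 aminolevulinate molecules into porphobilinogen, was dim, with 6.15, 5.88 and 6.10 in the tea arrays and 6.51, 6.01 and 6.85 in the controls. Its mean lay below 6.47, the median of all probe means, and control replicate 2 lay among the tea arrays. The difference was -0.41 ± 0.32 (SE), and -0.39 ± 0.34 without control replicate 1. Its size is uncertain this close to the random control row.

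Cpox, the mitochondrial coproporphyrinogen oxidase, read 8.20, 8.55 and 8.41 with tea and 8.13, 8.71 and 9.02 with water. All tea arrays lay below control replicates 2 and 3 but above control replicate 1. The difference was -0.24 ± 0.33 (SE) and became -0.48 ± 0.31 without that array. It was -0.04 without control replicate 3, so its size rested on single controls.

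Hmox1, the inducible haem oxygenase that opens the haem ring and itself draws electrons from Por, read 7.64, 7.71 and 6.93 with tea. The controls read 8.98, 7.91 and 7.62, with control replicate 1 highest of the 6 at 2.54-fold above the median of the other arrays. Tea replicate 3 was the lowest, and control replicate 3 lay among the tea arrays. The difference was -0.74 ± 0.41 (SE, 95% interval -1.65 to 0.16), a 1.67-fold lower level with tea. Without control replicate 1 it was -0.34 ± 0.34.

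**Figure D2:**
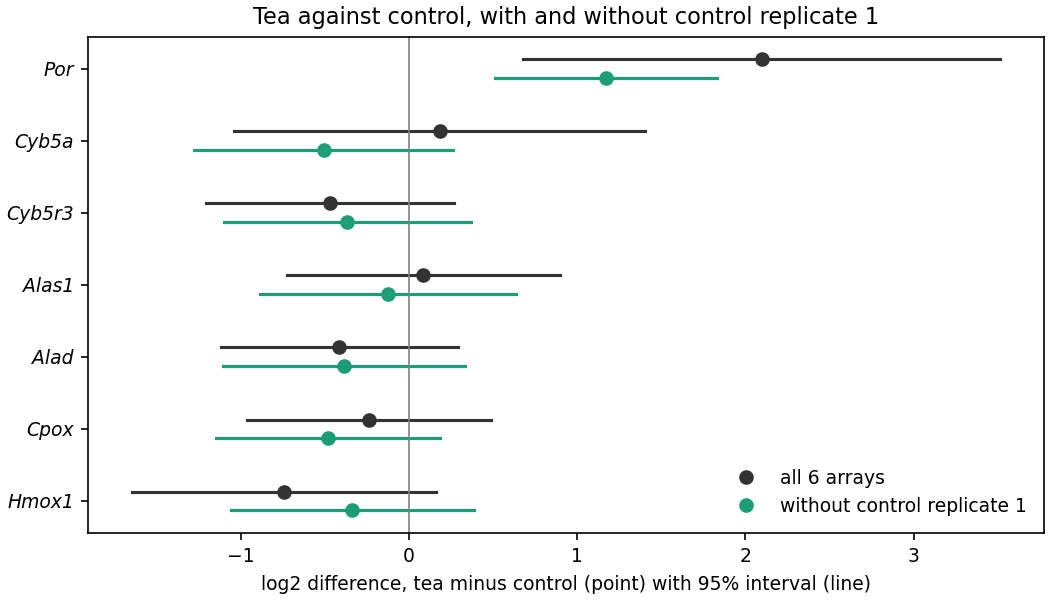
Log2 difference of tea minus control (horizontal axis, point) with its 95% interval (line) for the 7 genes, from all 6 arrays (dark) and without control replicate 1 (green). Por stays to the right in both, at 2.10 and 1.17, while Cyb5a and Alas1 change sign.

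Over the set, 3 of 7 genes had higher and 4 lower means with tea, with a median difference of -0.24 on the log2 scale, where 49.7% of all 26419 probes were higher and their median was -0.0022. Without control replicate 1 Por alone was higher and 6 were lower, with a median of -0.37, against 50.7% higher and 0.0065 over all probes. The median of the set was -0.04 without control replicate 3 and -0.14 without tea replicate 1. None of the 7 passed the correction over all probes (limma, Benjamini-Hochberg adjusted p from 0.949 to 0.980). Por was the 1 gene of the set at an unadjusted p under 0.05, where 1.97% of all probes were higher and 2.26% lower with tea at that p. Of all probes 0.00379% passed the correction with 6 arrays and 0.0227% without control replicate 1, where the set again had 0 past it and 1, Por, at an unadjusted p under 0.05 (limma, lowest adjusted p = 0.608). Without that array 1488 of all 26419 probes, in either direction, were at an unadjusted p under 0.05 (limma).

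Por was the 1 gene of 7 whose tea arrays all exceeded the controls, as did 4.87% of all probes, and none of the 7 had tea arrays all below, as 5.54% did. Against control replicates 2 and 3 alone, Por lay above, as 9.96% of all probes did, and Cpox below, as 11.1% did. Since the set was chosen with this contrast known, nothing is read from these counts.

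The genes also differed in how far they varied between arrays, whatever the group. Por spanned 4.17 log2 units over the 6 arrays, a range exceeded by 0.197% of all probes. Cyb5a spanned 2.35 and Hmox1 2.05, and the other 4 genes spanned 0.89 to 1.04, below the median of 1.14 over all probes. The wide ranges rested on control replicate 1. Over the other 5 arrays Por spanned 1.43, Cyb5a 1.29 and Hmox1 0.98, the last close to the 0.97 of Alad, and Alas1, Cyb5r3 and Cpox spanned 0.83 to 0.90.

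Profiles over all 6 arrays, control replicate 1 included, were compared by the root-mean-square difference of log2 values after the mean of each gene was removed, where 0 means identical shape. Within the set the closest pairs were Cyb5r3 with Alad, at 0.29, and Alas1 with Cpox, at 0.29. The farthest were Por and Hmox1, at 1.96, which lay at opposite ends in control replicate 1. Por was no closer than 1.05 to any of the other genes, Cyb5a being the nearest.

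Outside the set, the 5 named genes closest to Por were Acsm3, a medium-chain acyl-CoA synthetase, at 0.25, Azin1, an antizyme inhibitor, at 0.38, Ceacam4 and Dcakd, both at 0.39, and Ssx2ip at 0.46. The median over named genes was 1.44. All of them had their lowest value in control replicate 1. Their tea minus control differences were 1.46 to 1.71 with all arrays, and 0.46 to 0.87 without that array. Closest to Alas1 were Mtm1 at 0.092, Gmfb at 0.11, Timm8b, Slc46a3 and Txn1, the last 3 each at 0.13, against a median of 0.53. Genes with small changes come near a flat profile such as that of Alas1 with ease, so these distances are not comparable with those of Por.

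**Figure D3:**
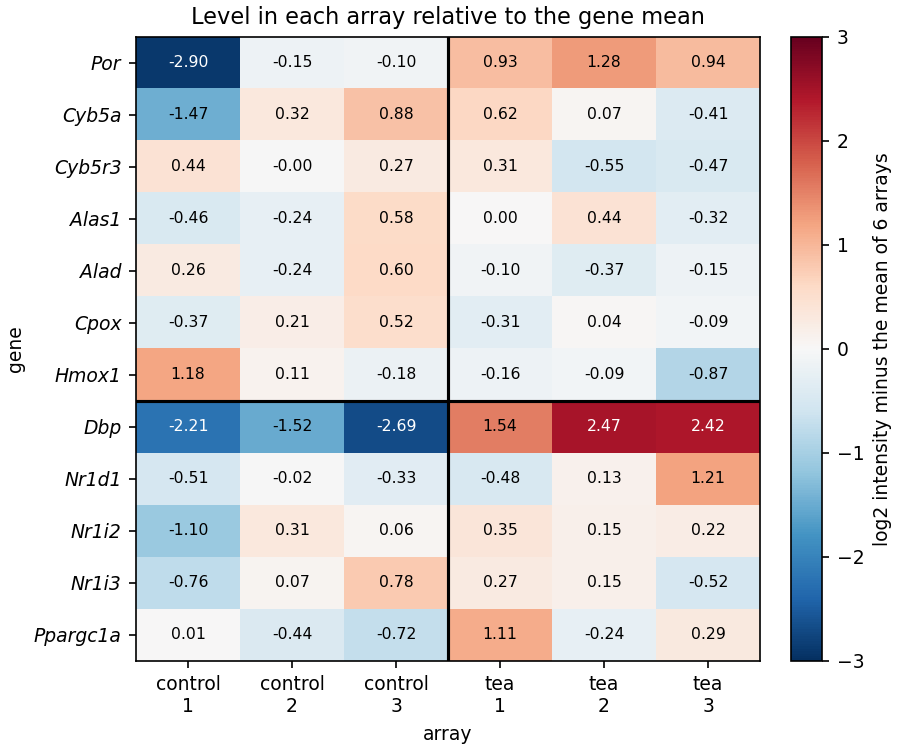
Log2 intensity minus the gene mean over the 6 arrays (colour and printed value) for the 7 genes (above the line) and 5 of their regulators (below), with arrays in columns. Control replicate 1 holds the extreme values of Por (-2.90), Cyb5a (-1.47) and Hmox1 (1.18), while Dbp separates the groups in every array.

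Genes known to control Por, Alas1 or Hmox1 were then read. Of 18 listed, 14 were measured, 9 higher and 5 lower with tea, with a median of 0.18, and of 0.22 without control replicate 1. Dbp, a clock output factor of the PAR bZIP family that acts upstream of Por and Alas1 in mouse liver, rose and was the 1 gene of the list past the correction. It read 9.65, 10.58 and 10.53 with tea and 5.90, 6.59 and 5.42 with water, and the difference was 4.28 ± 0.39 (limma, adjusted p = 0.0142). Control replicates 1 and 3 of Dbp lay near the random control row, which read 5.05 to 5.40, so the size of the difference is uncertain. Unlike Por, Dbp was not lowest in control replicate 1, and its difference was 4.25 ± 0.40 without that array. The call was lost without tea replicate 1, 2 or 3, or control replicate 3, with limma adjusted p from 0.0554 to 0.240.

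Further regulators did not pass. Tef, a relative of Dbp, differed by 0.77 ± 0.31 (SE) and Nr1d2, a haem-binding repressor, by 1.30 ± 0.47, or by 0.73 ± 0.33 without control replicate 1. Both had tea arrays all above the controls, as had 4.87% of all probes. Both had an unadjusted p under 0.05, where 1.97% of all probes were higher with tea. Nr1d1, the haem-sensing Rev-erb alpha, read 7.08, 7.69 and 8.77 with tea and 7.05, 7.54 and 7.23 with water, and overlapped.

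The drug receptors that induce Por and Alas1 gave no separation of the groups. Nr1i2, the pregnane X receptor, read 10.76, 10.56 and 10.62 with tea and 9.30, 10.72 and 10.47 with water, so that it, like Por, was lowest in control replicate 1. Its difference was 0.48 ± 0.39 (SE) and 0.05 ± 0.31 without that array. Nr1i3, the constitutive androstane receptor, read 9.76, 9.64 and 8.98 with tea and 8.73, 9.56 and 10.28 with water, a difference of -0.06 ± 0.42, and of -0.46 ± 0.35 without control replicate 1, its lowest array. Ppargc1a, a coactivator of Alas1 in fasting, read 9.49, 8.14 and 8.67 with tea and 8.39, 7.95 and 7.66 with water, a difference of 0.77 ± 0.39 with overlapping groups. Without control replicate 1 its tea arrays all lay above the controls, as in 9.96% of all probes. The difference was then 0.96 ± 0.38 (limma, unadjusted p = 0.024) and did not pass the correction. In that setting 1488 of all 26419 probes had an unadjusted p under 0.05 (limma).

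Other electron carriers had more lower than higher means with tea, and none passed the correction. Of 13 listed, 9 were measured, 3 higher and 6 lower, with a median of -0.20 and, without control replicate 1, of -0.28 with 8 of 9 lower. At an unadjusted p under 0.05 there were 2, both lower, as were 2.26% of all probes at that p. Fdx1, the ferredoxin that serves mitochondrial P450s, read 12.97, 12.75 and 12.52 with tea and 13.40, 13.53 and 13.53 with water. Its groups did not overlap, with tea below, as in 5.54% of all probes. The difference was -0.74 ± 0.29 (SE), or -0.78 ± 0.31 without control replicate 1. Cyb5d2, a haem-binding protein with a cytochrome b5-like domain, differed by -0.89 ± 0.35, and by -1.22 ± 0.31 without control replicate 1. Its tea arrays too lay below all controls, with and without that array. Cyb5b, the mitochondrial outer membrane form of cytochrome b5, differed by -0.43 ± 0.47, or by -0.28 ± 0.46 without that array, with overlapping groups.

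Of 16 other haem synthesis genes listed, 12 were measured, 5 higher and 7 lower with tea, with a median of -0.13, and -0.12 without control replicate 1. Clpx was the 1 at an unadjusted p under 0.05, lower with tea, as were 2.26% of all probes at that p. It encodes the unfoldase of a mitochondrial protease that activates ALAS in yeast and erythroid cells and degrades ALAS1 when haem is plentiful. It read 12.70, 12.12 and 11.82 with tea and 12.77, 13.70 and 13.57 with water. The tea arrays lay below the controls, tea replicate 1 just below control replicate 1, and the difference was -1.13 ± 0.37 (SE), or -1.42 ± 0.34 without that array, with adjusted p of 0.949 and 0.476 (limma).

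Tmem14c, which helps move haem precursors across the inner mitochondrial membrane, differed by 0.91 ± 0.68 with all arrays. It read 11.20 in control replicate 1 against 13.71 to 14.50 elsewhere, and differed by -0.04 ± 0.35 once that array was left out. Uros, which closes the porphyrin ring, read 4.70 to 5.19 in the 6 arrays, at or under the random control row.

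Of 18 genes listed for haem breakdown and handling, 12 were measured, 5 higher and 7 lower, with a median of -0.09 and, without control replicate 1, of -0.29. Hpx, the plasma protein hemopexin that binds free haem and returns it to the liver, read 11.65, 11.53 and 11.86 with tea and 12.67, 12.26 and 13.06 with water. Its groups did not overlap, with tea below, as in 5.54% of all probes. The difference was -0.98 ± 0.32 with all arrays and -0.98 ± 0.34 without control replicate 1. Hpx did not pass the correction (limma, adjusted p = 0.949 and 0.816). It was the 1 gene of this list at an unadjusted p under 0.05, where 2.26% of all probes were lower.

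Hmox2, the constitutive haem oxygenase, differed by 0.47 ± 0.32 (SE), with opposite sign to Hmox1, and by 0.24 ± 0.31 without control replicate 1. Slc46a1, a folate carrier that also moves haem, differed by -0.86 ± 0.43 and by -0.38 ± 0.33. Control replicate 1, at 7.82, was its highest array.

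The P450 genes, which receive the electrons, were balanced between higher and lower. Of 73 microsomal P450 genes listed, 50 were measured, 24 higher and 26 lower with tea, with a median of -0.0055, and of -0.13 without control replicate 1, where 30 were lower. Members of these families are alike in sequence and their probes may share signal. Of all probes 1.97% were higher and 2.26% lower with tea at an unadjusted p under 0.05. Of the P450 genes 1 was higher at that p, Cyp7a1, the first enzyme of bile acid synthesis, at 1.38 ± 0.51, with overlapping groups. There were 3 lower. Cyp4a2 and Cyp4a3, which encode fatty acid hydroxylases, differed by -1.20 ± 0.34 and -0.95 ± 0.31. Cyp4b1 differed by -1.42 ± 0.47, or -0.95 ± 0.38 without control replicate 1, its highest array. Its tea arrays read 5.38, 5.84 and 4.65, near or under the random control row, so the size is uncertain. In all 3 lower genes the tea arrays lay below the controls with and without control replicate 1, as in 5.54% and 11.1% of all probes. They were picked by their p. Among the other P450 genes, Cyp2a1, Cyp2j3 and Cyp2d3 also lay below in both settings. Cyp2b12 lay above in both, as did 4.87% and 9.96% of all probes. None of these P450 genes passed the correction (limma, adjusted p = 0.949 for each).

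Of 12 other acceptors listed, mostly enzymes of sterol and fatty acid metabolism that take electrons from Por or cytochrome b5, 10 were measured, 5 higher and 5 lower, with a median of 0.03, and of -0.10 without control replicate 1. Scd, the stearoyl-CoA desaturase fed by cytochrome b5, differed by -2.16 ± 0.83 (SE) and read 11.48 in control replicate 1, without which the difference was -0.99 ± 0.42. Its groups overlapped with and without that array, as control replicate 3, at 7.39, lay below tea replicate 3, at 7.59. Scd was the 1 gene of this list at an unadjusted p under 0.05, where 2.26% of all probes were lower with tea. Fads3 and Scd2 differed by 0.74 ± 0.53 and 0.46 ± 0.37, with overlapping groups. Without control replicate 1 they differed by 0.48 ± 0.50 and 0.78 ± 0.33. The tea arrays of Scd2 then all lay above the controls, as in 9.96% of all probes. The median of this list also turned without tea replicate 1, to -0.32, and without control replicate 2, to -0.064. Of 6 other haem proteins listed, 5 were measured, with 2 higher, 3 lower, a median of -0.15, or -0.17 without control replicate 1, and 0 at an unadjusted p under 0.05 (limma). Cygb, Cycs and Tdo2 differed by -0.71 ± 0.42, -0.44 ± 0.34 and 0.35 ± 0.35, and without control replicate 1 by -0.26 ± 0.33, -0.46 ± 0.36 and 0.12 ± 0.33. Cygb read 6.48 in that array and 4.72 to 5.53 in the others.

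**Figure D4:**
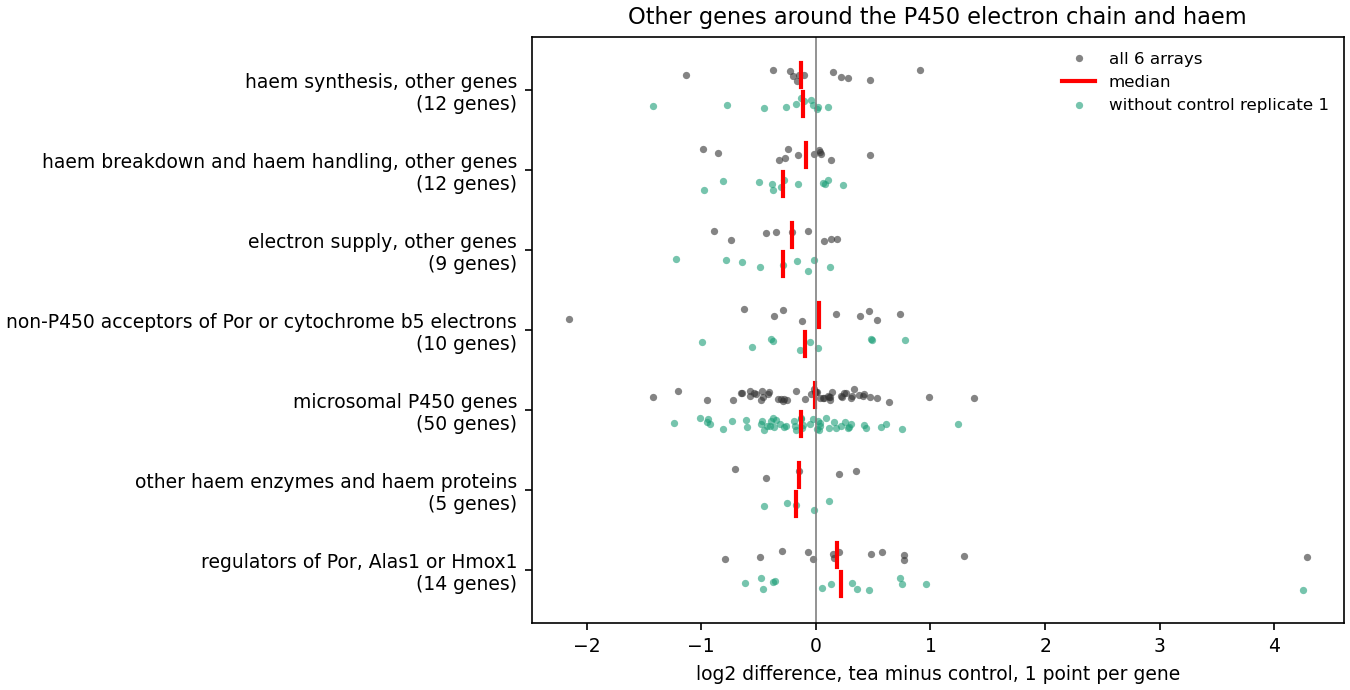
Log2 difference of tea minus control (horizontal axis) for each measured gene of 7 lists (rows, with the number of genes), from all 6 arrays (dark) and without control replicate 1 (green), with list medians in red. Medians lie between -0.29 and 0.22, and Dbp is the point beyond 4.

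In whole tissue, fewer cells of a type and less RNA per cell cannot be told apart. Summed intensity over 13 hepatocyte markers was 274723 to 318894 with tea and 292239 to 325048 with water. It was 297422 in control replicate 1, inside the range of the other arrays, but the brightest genes dominate such sums. Control replicate 1 was the lowest array for 3 of the 13 and the highest for 3. With tea 5 were higher and 8 lower, with a median of -0.019. Without control replicate 1, 1 was higher and 12 lower, with a median of -0.14. Over 10 markers of pericentral hepatocytes, the zone richest in Por and P450s, summed intensity was 54178 to 64280 with tea and 52380 to 64648 with water. Most of it came from Cyp2e1, also in the P450 list, which alone read 34508 to 45541 with tea and 33836 to 42646 with water. Of the 10 markers, 5 were higher and 5 lower, with a median of -0.0030, or 0.011 without control replicate 1. Over 10 periportal markers 7 were higher, with a median of 0.34, and sums of 86468 to 100589 with tea and 76079 to 99367 with water, the lowest in control replicate 1.

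For red cells, whose precursors make most of the body's haem, 8 markers had 4 higher and 4 lower, with a median of 0.03, or 0.07 without control replicate 1. Their sums were 3013 to 6869 with tea and 4410 to 5972 with water. For Kupffer cells and macrophages, which express Hmox1, 4 of 9 were higher and 5 lower, with a median of -0.19. Their sums were 2713 to 5576 with tea and 3651 to 6341 with water. Of the 65 markers measured over 8 cell type lists, 0 passed the correction (limma). The periportal Sds was the 1 at an unadjusted p under 0.05, higher with tea, as were 1.97% of all probes. The part of cell composition in the values of Por and Hmox1 was not tested.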

How the data were processed

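Per the labels' protocols, liver RNA was labelled with Cy3 for NimbleGen arrays, 1 colour per array. The deposited table holds 1 linear intensity per probe and array, and RMA, with no version, is named in the submitters' processing notes. RMA makes array distributions alike, so differences in total signal are no longer visible. Median intensity was 87.1 to 95.9. Of 26420 rows, 1 random control row was left out and log2 was taken of the other 26419. Through their transcript identifiers and the GRCr8 RefSeq table, 9747 probes were tied to 1 symbol and 16672 to none, and 97 of the 9627 genes had several probes, of which the one with the highest mean was used.

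Tea was compared with control on all probes with limma 3.58.1 in R 4.3.3 (two-sided, Benjamini-Hochberg adjusted, threshold 0.05), and the script was tested on simulated data. SEs and 95% intervals are limma's. Genes and lists were chosen with earlier results of these data known. Named in the text were the measured genes of the set, the 3 genes of each pathway list with the smallest p, 5 fixed regulators and the 5 nearest profiles, except 1 gene that is not reported here. Genes beyond that rule (Cyp7a1, Cyp2a1, Cyp2j3, Cyp2d3, Cyp2b12, Cyp2e1, Uros, Sds and Alb) were chosen after their values were seen. Alternatives were each array left out, the replicate number as a block, quantile normalization, median centring, eBayes with trend and robust, leaving out dim probes, and the mean of a gene's probes.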

Additional observations from a re-analysis of the deposited data

How the results depend on the processing

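With an array left out Por ran from 1.17 to 2.57 on the log2 scale, the number of genes higher with tea ran from 1, without control replicate 1, to 3, and Cyb5a, Alas1 and Cpox ran from -0.51 to 0.67, from -0.12 to 0.39 and from -0.48 to -0.04 on the log2 scale. The number of probes past the correction ran from 0 to 6, and of pathway genes from 0 to 1 (limma), with 586, without tea replicate 2, to 1567, without control replicate 2, probes at an unadjusted p under 0.05. With an array left out, the median of the set ran from -0.37 to -0.04, and list medians from -0.29 to 0.020 for haem breakdown and handling, from -0.13 to 0.038 for microsomal P450 genes, from -0.32 to 0.21 for non-P450 acceptors and from 0.14 to 0.43 for regulators. For other haem synthesis genes the median ran from -0.12 to 0.025. With dim probes left out, which drops Alad and shortens the lists, the medians were -0.076 for the set, -0.33 for non-P450 acceptors, 0.18 for other haem synthesis genes, 0.0053 for haem breakdown and handling and 0.026 for other haem proteins. The cause of the other shifts was not tested. With the replicate number as a block, 0 probes and 0 pathway genes passed (limma), with 787 probes and 10 pathway genes at an unadjusted p under 0.05 against 1118 and 12 without it, and differences were unchanged by construction. Deviations from the group means of same-numbered tea and control arrays correlated at -0.22, 0.013 and -0.25, and those of unlike-numbered arrays at -0.12 to 0.25. Deviations from a mean of 3 arrays are tied to each other, so these values cannot decide whether the numbers pair the arrays. Low signal limits Alad, Uros and the Por value of control replicate 1, which lie near the random control row. The same holds for some arrays of other genes named here, among them Dbp, Cyp4b1, Fads3, Scd2 and Cygb.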
